A study of Oryctolagus cuniculus with 12 samples.

Results

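The Krüppel-like factors (KLFs) looked for here were KLF2, KLF3, KLF4, KLF5, KLF6, KLF7, KLF10, KLF11, KLF12, and KLF13. They were taken by gene name from a table of 20566 rabbit genes, in which 9 of the 10 names had a row. All 9 passed the filter on low counts, as did 14835 genes in all. RNA was sequenced from the conjunctiva of female Japanese white rabbits, which were 12 to 14 weeks old. The right eye had a trabeculectomy with mitomycin C, an operation that drains aqueous humor into a bleb under the conjunctiva, and received betamethasone, a glucocorticoid, as an injection and an antibiotic ointment at its end. Bleb conjunctiva was taken after 3 hours (TL3h), 3 days (TL3d), or 14 days (TL14d), and left-eye conjunctiva of operated rabbits was the control. Each group held 3 libraries, and the labels do not tie a control eye to an operated eye.

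KLF proteins bind GC-rich and CACCC sequences through zinc fingers at their C-terminal end, and their N-terminal parts recruit activators or repressors. KLF4 and KLF5 are known for their roles in the maturation and renewal of surface epithelia. KLF2 and KLF4 are induced by flow in endothelium, KLF6 and KLF10 are early response genes, and KLF3 and KLF12 repress transcription through the corepressor CtBP. The family therefore spans epithelium, vessels, and early wound responses, all of which are present in a filtering bleb.

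Estimated counts summed to between 27111348 and 38591425 per library, and the KLF genes held between 41 counts (KLF13) and 43613 counts (KLF5) in a library. Levels are CPM, the counts of a gene scaled to a fixed library size after adjustment by TMM, a scaling that assumes that most genes are alike between libraries. A level at which 3 counts would be seen lay between 0.0712 and 0.124 CPM. A gene was called higher or lower when its adjusted p (q) from the edgeR quasi-likelihood test was 0.05 or less. In whole conjunctiva, fewer cells of a type and less RNA per cell cannot be told apart.

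Control replicate 3 and TL14d replicate 1 stood apart from their groups. In 8 of the 9 KLF genes control replicate 3 lay outside the range of the other 2 controls, and in 8 of 9 it lay on the side of the TL3h mean, as it did in 82.4% and 73.1% of all genes tested (69.5% and 40.7% for control replicate 1, 47.4% and 41.7% for control replicate 2). Its mean correlation with the other controls across all genes was 0.918, against 0.935 and 0.945 for those controls and 0.916 for TL3d replicate 3 within its own group. Its summed level of 6 fibroblast markers was 76286 CPM, against 12161 and 35466 CPM in the other controls, and that of 8 endothelial markers was 288 CPM against 40.9 and 144 CPM. Across all genes, TL14d replicate 1 had a mean correlation of 0.952 with the control libraries and of 0.864 with the other TL14d libraries. TL14d replicates 2 and 3 had 0.884 and 0.909 with their own group and 0.840 and 0.894 with the controls. The 14-day group was thus spread as a whole. Control replicate 3 lay toward the TL3h mean in most genes. TL14d replicate 1 correlated more with the controls than the other TL14d libraries did. Leaving out both libraries therefore favours larger differences from control, and calls gained in that way are not independent evidence of a change. Such calls of KLF genes against control are given beside the values with all libraries.

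Of the 9 KLF genes, 4 were higher at 3 hours than in control conjunctiva (KLF4, KLF6, KLF7, and KLF10), where 23.2% of all genes tested were higher. KLF11 and KLF12 were lower, as were 22.2% of all genes tested. KLF3, KLF5, and KLF13 did not pass the threshold. All TL3h libraries lay above all controls in 4 genes and below them in 2, as they did in 28.9% and 28.3% of all genes tested. The median log2 fold change of the 9 genes was 0.94, and that of all genes tested was 0.02. Without control replicate 3 and TL14d replicate 1, 5 KLF genes were higher and 4 were lower, and in that fit 24.8% of all genes tested were higher and 25.5% were lower. The number higher was 2 without control replicate 1, control replicate 2, TL3h replicate 2, or TL3h replicate 3, and also with only the 6 libraries compared or with scaling by library size only. Under library size only 12.7% of all genes were higher, and in the other fits with 2 that share was not counted.

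**Figure D1:**
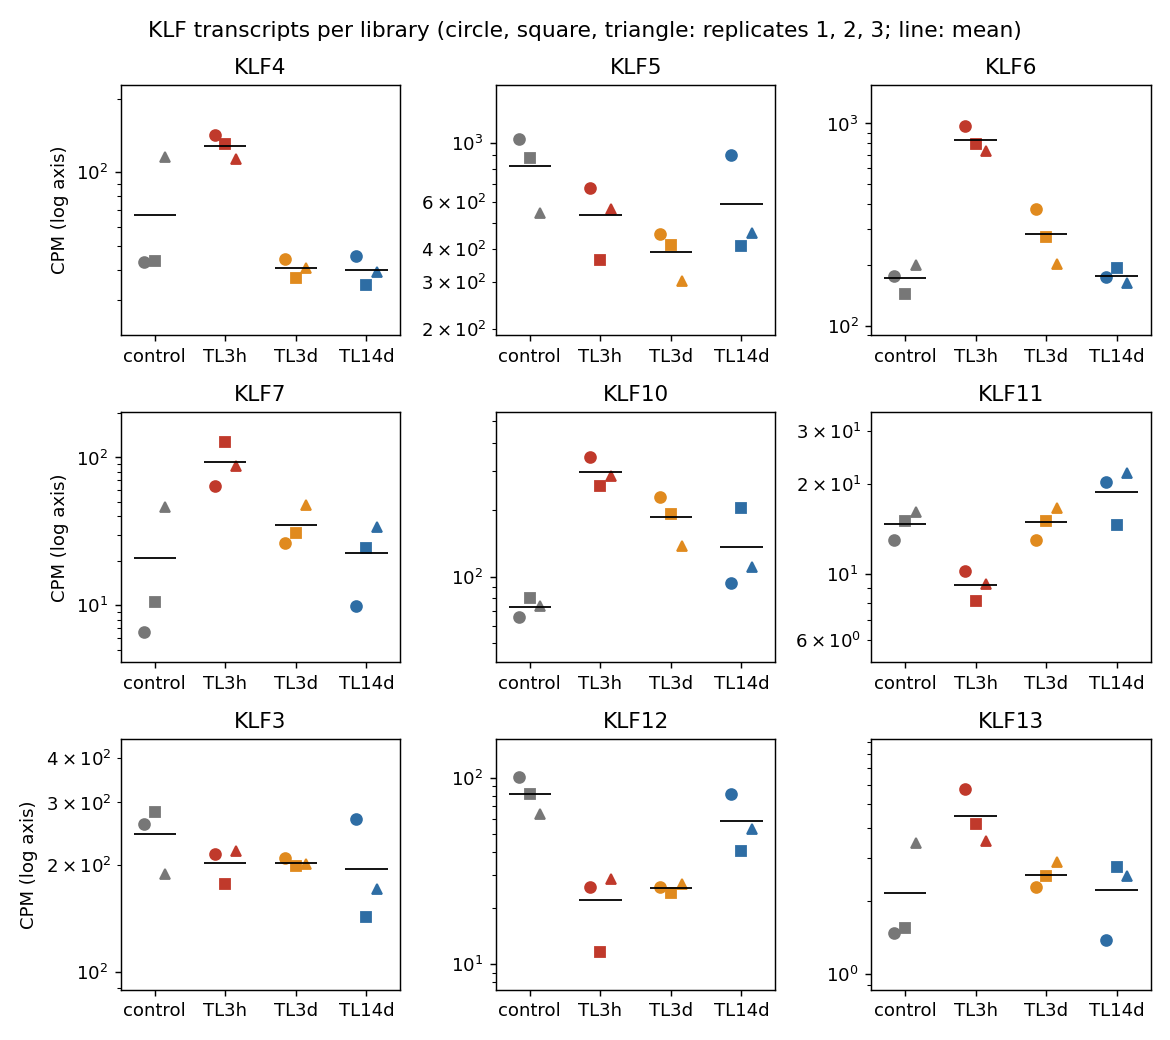
CPM of 9 KLF genes on log axes in each of 12 libraries, by group, with circles, squares, and triangles for replicates 1, 2, and 3 and a line at the group mean. All TL3h libraries lay above all controls in KLF6, KLF7, KLF10, and KLF13 and below them in KLF11 and KLF12, and in KLF4 and KLF7 control replicate 3 lay well above the other controls.

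KLF6 encodes an activator with an acidic N-terminal region and is known to be induced early after tissue injury. Its gene (ID 100340866) lies on unplaced sequence of OryCun2.0. KLF6 stood at 176, 143, and 199 CPM in the controls, at 969, 793, and 730 CPM at 3 hours, at 376, 276, and 201 CPM at 3 days, and at 174, 194, and 163 CPM at 14 days. The 3-hour libraries were far above all others, and those at 14 days lay within the control range. KLF6 was 4.81-fold higher at 3 hours, with a log2 fold change of 2.27 ± 0.24 (SE) and q = 8.87e-05. At 3 days its log2 fold change of 0.72 ± 0.23 gave q = 0.054 although the 3 libraries lay above all controls, and without TL3d replicate 3 it was 0.92 (q = 0.0259). Without TL3d replicate 1 the 3-day q was 0.189, and the call was made in 2 of 23 alternatives. KLF6 fell between 3 hours and 3 days by 1.55 on the log2 scale (q = 0.000691).

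KLF7, the close relative of KLF6, is best known from neurons and adipose tissue. Its gene (ID 100350247) lies on chromosome 7, from 147878089 to 147975810. KLF7 stood at 6.55, 10.5, and 45.9 CPM in the controls and at 63.7, 127, and 87.7 CPM at 3 hours. It stood at 26.2, 30.7, and 47.8 CPM at 3 days and at 9.88, 24.3, and 33.8 CPM at 14 days. Control replicate 3 reached the level of the 3-day libraries but not that of the 3-hour libraries. The log2 fold change at 3 hours was 2.14 ± 0.70 (q = 0.0301), and it was 3.39 without control replicate 3 (q = 0.00157). The call at 3 hours was lost without control replicate 1, control replicate 2, TL3h replicate 2, or TL3h replicate 3 (q from 0.0603 to 0.101). At 3 days the log2 fold change was 0.73 (q = 0.464), and without control replicate 3 it was 2.02 (q = 0.039), as it was without that library and TL14d replicate 1 (q = 0.0097). Without control replicate 1 the 3-day q was 0.792, and the call was made in 2 of 23 alternatives.

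KLF10 and KLF11 are the TGF-β-inducible KLFs, which recruit the corepressor SIN3A. KLF10 (ID 100338474) lies on chromosome 3, from 118135946 to 118141992. Its level was 65.6, 80.0, and 73.7 CPM in the controls, 344, 256, and 285 CPM at 3 hours, 229, 191, and 137 CPM at 3 days, and 93.9, 204, and 111 CPM at 14 days. Every operated library was above every control. KLF10 was 4.03-fold higher at 3 hours (log2 fold change 2.01 ± 0.30, q = 0.000505) and 2.54-fold higher at 3 days (1.35 ± 0.29, q = 0.0179). At 14 days the log2 fold change of 0.90 ± 0.29 gave q = 0.38. The 3-day call was lost without control replicate 1, control replicate 2, TL3d replicate 1, or TL3d replicate 2 (q from 0.0592 to 0.0684).

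KLF11 (ID 100352554, on unplaced sequence) moved the other way. Its level was 13.0, 15.1, and 16.1 CPM in the controls, 10.2, 8.09, and 9.26 CPM at 3 hours, 13.0, 15.1, and 16.6 CPM at 3 days, and 20.3, 14.5, and 21.8 CPM at 14 days. The 3-hour libraries were the lowest of all. KLF11 fell by 0.68 ± 0.19 on the log2 scale at 3 hours (q = 0.0138), and from there to 3 days it rose by 0.69 ± 0.19 (q = 0.0157). Without TL3d replicate 3 that rise gave q = 0.0504.

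KLF12, a CtBP-binding repressor, had the largest fall of the 9 genes at 3 hours and at 3 days. Its gene (ID 100342041) spans 75103153 to 75614033 on chromosome 8. KLF12 stood at 100, 82.2, and 63.6 CPM in the controls, at 26.0, 11.7, and 28.5 CPM at 3 hours, at 25.9, 24.0, and 26.8 CPM at 3 days, and at 81.6, 40.5, and 53.4 CPM at 14 days. The 3-hour and 3-day libraries all lay below the controls, and of the 14-day libraries replicate 1 lay within the control range and the other two lay between. KLF12 fell by 1.89 ± 0.35 on the log2 scale in the 3-hour libraries (q = 0.00169) and by 1.68 ± 0.35 in the 3-day libraries (q = 0.0164). The 14-day value was −0.49 ± 0.34 (q = 0.634). The 3-day call was lost when control replicate 1, control replicate 2, TL3d replicate 1, or TL3d replicate 2 was left out (q from 0.0552 to 0.0641).

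**Figure D2:**
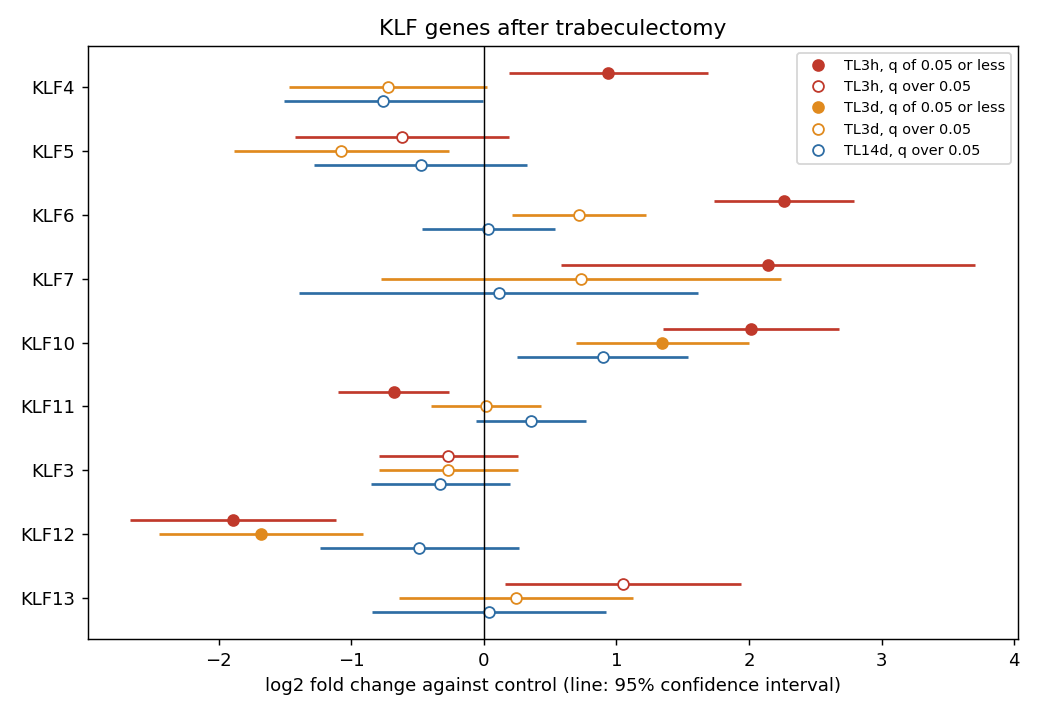
Log2 fold change of 9 KLF genes against control for the TL3h, TL3d, and TL14d groups, with 95% confidence intervals. Filled points have q of 0.05 or less: 6 genes at 3 hours, KLF10 and KLF12 at 3 days, and none at 14 days.

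KLF4 (ID 103347970) lies on chromosome 1, from 5665756 to 5668152, and its transcript model is only 744 bases long. Its level was 42.9, 43.3, and 115 CPM in the controls, 142, 130, and 113 CPM at 3 hours, 44.3, 36.9, and 40.7 CPM at 3 days, and 45.4, 34.5, and 39.2 CPM at 14 days. The 3-hour libraries lay at a high level, and control replicate 3 was among them. KLF4 was 1.92-fold higher at 3 hours (log2 fold change 0.94 ± 0.34, q = 0.0433). The call held in 7 of 23 alternative analyses, with q up to 0.233. Without control replicate 3 the log2 fold change was 1.52 (q = 0.000178), and without any other single library the call was lost (q from 0.0507 to 0.145). From 3 hours to 3 days KLF4 fell by 1.66 ± 0.34 (q = 0.00406), a comparison in which no control library enters the difference.

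KLF5 (ID 100008718) lies on chromosome 8, from 74494657 to 74511138. It stood at 1035, 878, and 546 CPM in the controls, at 676, 364, and 565 CPM at 3 hours, at 453, 412, and 302 CPM at 3 days, and at 901, 411, and 458 CPM at 14 days. At 3 days all libraries lay below all controls. None of the comparisons of KLF5 with control passed the threshold, with log2 fold changes of −0.62 ± 0.36 (q = 0.194), −1.08 ± 0.36 (q = 0.0656), and −0.47 ± 0.36 (q = 0.672) at the 3 times. Without control replicate 3 the 3-day value was −1.32 (q = 0.0457), and without TL14d replicate 1 it was −1.08 (q = 0.0283). Without both libraries KLF5 was lower at 3 hours (−0.90, q = 0.0237) and at 3 days (−1.32, q = 0.0111). The 3-day value was called in 6 of 23 alternatives, and without control replicate 1 its q was 0.187. Among the 6 were DESeq2, the fit of only the 6 libraries compared, and a fit with the replicate number as a block. The summed level of 7 conjunctival epithelium markers was 11305, 9064, and 5524 CPM in the controls, in the same order as KLF5, and ran from 4603 to 7437 CPM at 3 hours, from 6639 to 16471 CPM at 3 days, and from 9908 to 13034 CPM at 14 days. Its part in the KLF5 values was not tested.

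KLF13, which binds SIN3A, had the lowest CPM of the 9 genes in every library. Its gene (ID 100349636, on unplaced sequence) has a model of 1238 bases. Its level was 1.47, 1.55, and 3.46 CPM in the controls, 5.77, 4.15, and 3.51 CPM at 3 hours, 2.27, 2.53, and 2.87 CPM at 3 days, and 1.38, 2.74, and 2.54 CPM at 14 days. The 3-hour libraries lay above the controls, the lowest of them only just above control replicate 3. The log2 fold change at 3 hours was 1.05 ± 0.40 (q = 0.0545), and without control replicate 3 it was 1.51 (q = 0.00981). It was 1.05 without TL14d replicate 1 (q = 0.0383) and 1.51 without both (q = 0.00301). The 3-hour value was called in 5 of 23 alternatives, with q up to 0.234 under scaling by library size only.

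KLF3 (ID 100353243, chromosome 2, from 28117739 to 28140040) is, like KLF12, a CtBP-binding repressor. Its level was 262, 283, and 188 CPM in the controls, 214, 176, and 218 CPM at 3 hours, 210, 199, and 201 CPM at 3 days, and 270, 142, and 171 CPM at 14 days. All groups overlapped the controls, and the log2 fold change at 3 hours was −0.27, with a 95% confidence interval from −0.79 to 0.26 (q = 0.389). Without control replicate 3 and TL14d replicate 1, KLF3 was lower at 3 hours (−0.48, q = 0.0181) and at 3 days (−0.44, q = 0.0454, against −0.27 and q = 0.439 with all libraries). Scaling by library size only, under which the median of all genes fell by 0.47 on the log2 scale, also gave a lower KLF3 at 3 hours (−0.78, q = 0.0267) and a lower KLF5 (−1.13, q = 0.0317).

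The transcript models of KLF3 did differ between the groups. The transcript table lists 4 models for KLF3, of which 1 starts 449 bases upstream of the other 3. The upstream model held 2.41, 10.8, and 0.39 CPM in the controls, 46.3, 60.0, and 67.7 CPM at 3 hours, 48.2, 63.2, and 67.8 CPM at 3 days, and 12.6, 6.65, and 27.9 CPM at 14 days. All 3-hour and 3-day libraries lay above all controls. The 3-hour libraries exceeded the controls by 3.68 ± 0.95 on the log2 scale (q = 0.0158). The log2 difference was 3.72 ± 0.95 for the 3-day libraries (q = 0.0514) and 1.80 ± 0.88 for the 14-day libraries (q = 0.663). Leaving out control replicate 1 gave q = 0.0669 for the 3-hour value, and leaving out control replicate 2 raised it to 5.36 (q = 0.00477). The 3-day value was 5.41 without control replicate 2, and without control replicate 1 it gave q = 0.171. It was called without TL14d replicate 1 (q = 0.0443), TL14d replicate 2 (q = 0.0477), or control replicate 3 and TL14d replicate 1 together (3.17, q = 0.0352).

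The main downstream model of KLF3, of 4972 bases, held 222, 231, and 133 CPM in the controls and 104, 75.9, and 86.6 CPM at 3 hours. Its 3-hour libraries lay below all controls, with a log2 fold change of −1.14 ± 0.30 (q = 0.0167). The call was lost without control replicate 1, control replicate 2, TL3h replicate 2, or TL3h replicate 3 (q from 0.0536 to 0.0639). At 3 days the model was called lower without TL14d replicate 1 (−0.97, q = 0.0289, against q = 0.0804 with all libraries) and without both that library and control replicate 3 (−1.20, q = 0.00763). Without TL3d replicate 2 its 3-day q was 0.221. As a share of the gene's FPKM, the upstream model went from 0.219 to 3.94% in the controls to 22.9 to 36.0% at 3 hours, 24.0 to 34.6% at 3 days, and 4.81 to 16.8% at 14 days. How reads were divided among models of 1 gene is not given in the sources used here, so the shares are estimates.

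**Figure D3:**
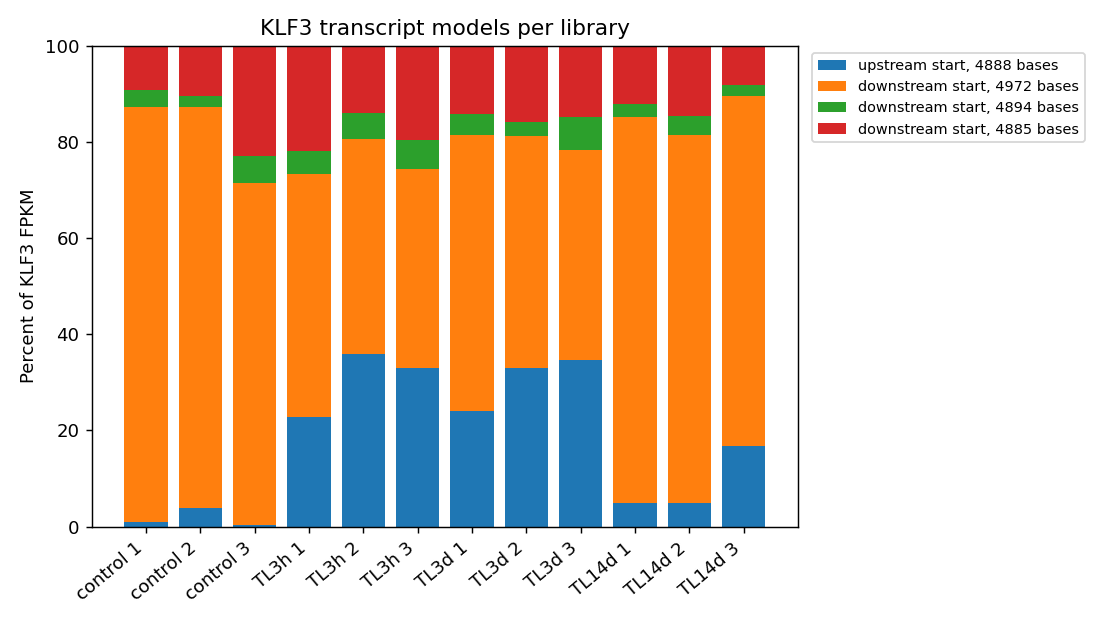
Share of KLF3 FPKM in each of 4 transcript models, in percent, for each of 12 libraries. The model with the upstream start held at most 3.94% in a control library and at least 22.9% in each 3-hour and 3-day library.

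Among 13 transcript models of the KLF genes, 4 were higher and 3 were lower at 3 hours, where 14.1% of all transcripts tested were higher and 14.1% were lower. At 3 days 1 was higher and 2 were lower, against 3.24% and 1.88% of all transcripts. From 3 hours to 3 days 1 was higher and 2 were lower, against 11% and 10.4% of all transcripts, and at 14 days compared with 3 hours 2 were higher and 3 were lower, against 13.9% and 13.5%. At 14 days none was called against control, as in all transcripts (0%), or against 3 days, where 0.0153% of all transcripts were higher and 0.107% lower. The short KLF5 model of 660 bases was lower at 3 days (log2 fold change −1.46 ± 0.33, q = 0.0393), and the call was lost without control replicate 1 or 2, any TL3d replicate, TL3h replicate 1 or 3, or TL14d replicate 3 (q from 0.0574 to 0.139).

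KLF2, the flow-induced endothelial KLF, had no row of its own name. A RefSeq table for another rabbit assembly, mOryCun1.1, gives KLF2 the gene ID 103345364, which in the deposited table belongs to a model of 608 bases on unplaced sequence described as translation initiation factor IF-2-like. That model held 1.76, 2.88, and 6.85 CPM in the controls and 6.46, 9.92, and 2.63 CPM at 3 hours. The groups overlapped, and its log2 fold change of 0.73 gave q = 0.337. Whether its reads stand for KLF2 was not tested, and it is not counted among the 9 genes.

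At 3 days KLF10 alone was higher and KLF12 alone was lower among the 9 genes, where 10.6% of all genes tested were higher and 7.0% were lower. Without control replicate 3 and TL14d replicate 1, 2 KLF genes were higher and 3 were lower, against 14.4% and 11.2% of all genes in that fit. At 14 days none of the 9 genes passed the threshold in edgeR, nor did any gene tested (0%), and DESeq2 called none of the 9. An unadjusted p under 0.05 was reached by KLF4 and KLF10 and by 10.4% of all genes. The KLF4 log2 fold change was −0.76 (q = 0.48), and without control replicate 3 it was −0.13. With all libraries the 14-day log2 fold change was 0.11 in KLF7 (q = 0.966) and −0.33 in KLF3 (q = 0.647). Without control replicate 3 and TL14d replicate 1, KLF7 was higher (1.76, q = 0.0453) and KLF3 was lower (−0.81, q = 0.026). In that fit 4.49% of all genes were higher and 2.15% lower, against 0% with all libraries. Leaving out those libraries favours gained calls, so the KLF7 and KLF3 calls do not establish a change at 14 days. Without control replicate 1 the KLF7 value was −0.32. All these comparisons share the same 3 control libraries.

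From 3 hours to 3 days KLF4 and KLF6 fell and KLF11 rose, where 19.0% of all genes were lower and 18.4% higher. In that comparison KLF7 (−1.37, q = 0.0112) and KLF13 (−0.77, q = 0.0341) were also lower without control replicate 3 and TL14d replicate 1, against 21.2% of all genes lower and 22.2% higher in that fit, and KLF10 was lower without TL14d replicate 2 (−0.66, q = 0.0287). With all libraries KLF7, KLF13, and KLF10 gave q = 0.132, 0.136, and 0.0945. They were called in 4, 1, and 1 of 23 alternatives. At 14 days compared with 3 hours, KLF4, KLF6, KLF7, and KLF10 were lower and KLF11 and KLF12 were higher, against 22.3% and 22.9% of all genes. The KLF7 call was lost without TL3h replicate 2 or 3, TL3d replicate 2, or TL14d replicate 1 or 2 (q from 0.0527 to 0.111), and KLF13 was lower without control replicate 3 (−0.97, q = 0.0342). With all libraries KLF13 gave q = 0.0625. Between 3 days and 14 days no KLF gene passed the threshold in edgeR, where 1.59% of all genes were lower and 0.647% higher. DESeq2 called 1 KLF gene higher and 1 lower in that comparison, for which its share of all genes was not counted. In edgeR 2 of the 9 had an unadjusted p under 0.05, as had 22.6% of all genes. In 1 test over the 3 times together, 6 of 9 KLF genes changed, as did 52.4% of all genes.

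Levels of different genes were compared per transcript length, as FPKM. In the controls KLF5 had the highest mean (241 FPKM), followed by KLF4 (100.3), KLF3 (45), KLF6 (44.1), KLF10 (24.2), KLF12 (7.04), KLF11 (3.95), KLF7 (2.6), and KLF13 (1.77). The ranges of KLF5 and KLF4 overlapped, as did those of KLF3 and KLF6, of KLF11 and KLF7, and of KLF7 and KLF13. At 3 hours KLF6 had the highest mean (153 FPKM), but its range overlapped that of KLF4 (141), which overlapped that of KLF5 (113). KLF12 was then the lowest (1.37 FPKM), with a range that overlapped that of KLF11. KLF5 had the highest mean at 3 days (115 FPKM), with a range that overlapped that of KLF6, and at 14 days (174 FPKM), when its range lay apart from that of KLF4 (60.8).

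The share of KLF5 in the summed FPKM of the 9 genes was 60.9, 56.9, and 34.5% in the controls and 23.7, 16.4, and 24.4% at 3 hours. That of KLF6 was 8.14 to 11% in the controls and 27.6 to 31.4% at 3 hours. The share of KLF10 was 4.38 to 5.87% in the controls, 13.1 to 13.9% at 3 hours, and 15.2 to 18.0% at 3 days. These shares depend on the lengths of the gene models, which are short for KLF4 and KLF13.

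**Figure D4:**
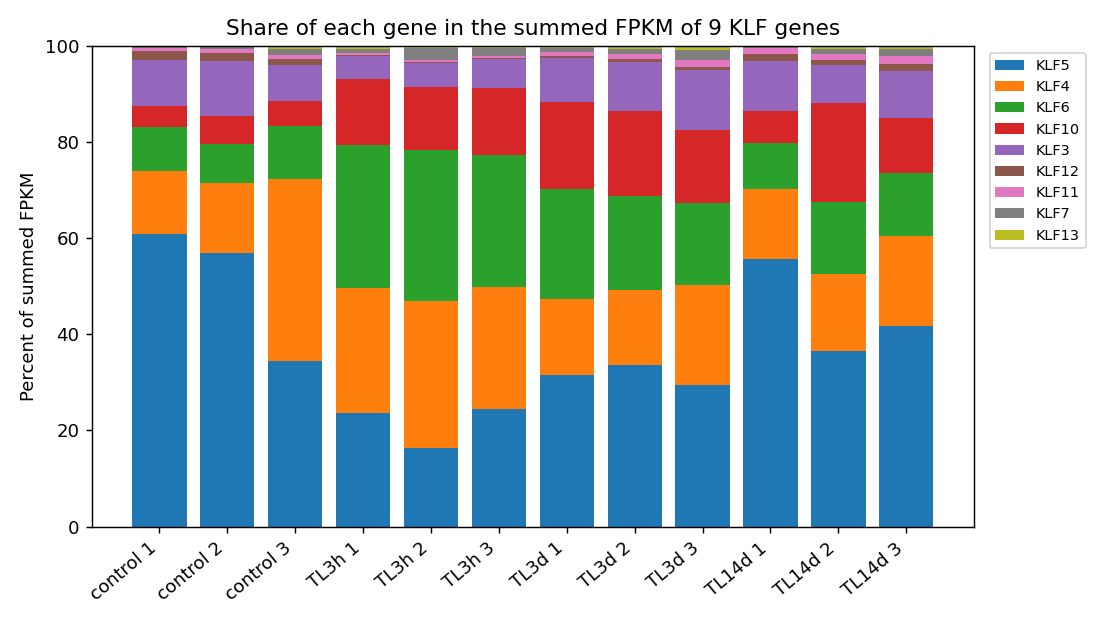
Share of each of 9 KLF genes in their summed FPKM, in percent, in each of 12 libraries. KLF5 held 34.5 to 60.9% in the controls and 16.4 to 24.4% at 3 hours, while KLF6 held 27.6 to 31.4% at 3 hours.

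A ratio of genes within a library does not depend on how libraries are scaled. No ratio had been planned. Of 8 ratios computed in all, the 4 described here pair genes by function, and these pairs were set after ratios, some of them the same pairs, had been seen, so they carry no test. KLF10 over KLF11 was 5.63 to 6.53 in the controls, 37.9 to 41.4 at 3 hours, 10.2 to 21.7 at 3 days, and 5.69 to 17.3 at 14 days. KLF3 over KLF12 was 5.60 to 7.38 in the controls, 16.4 to 32.3 at 3 hours, 16.1 to 17.7 at 3 days, and 6.90 to 7.53 at 14 days. In both ratios the 3-hour and 3-day libraries lay above the controls. KLF4 over KLF5 was 0.215, 0.256, and 1.10 in the controls and 1.04 to 1.86 at 3 hours, so that control replicate 3 lay among the 3-hour libraries. KLF6 over KLF7 overlapped between all groups, with 8.71 to 54.1 in the controls and 12.6 to 30.6 at 3 hours.

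**Figure D5:**
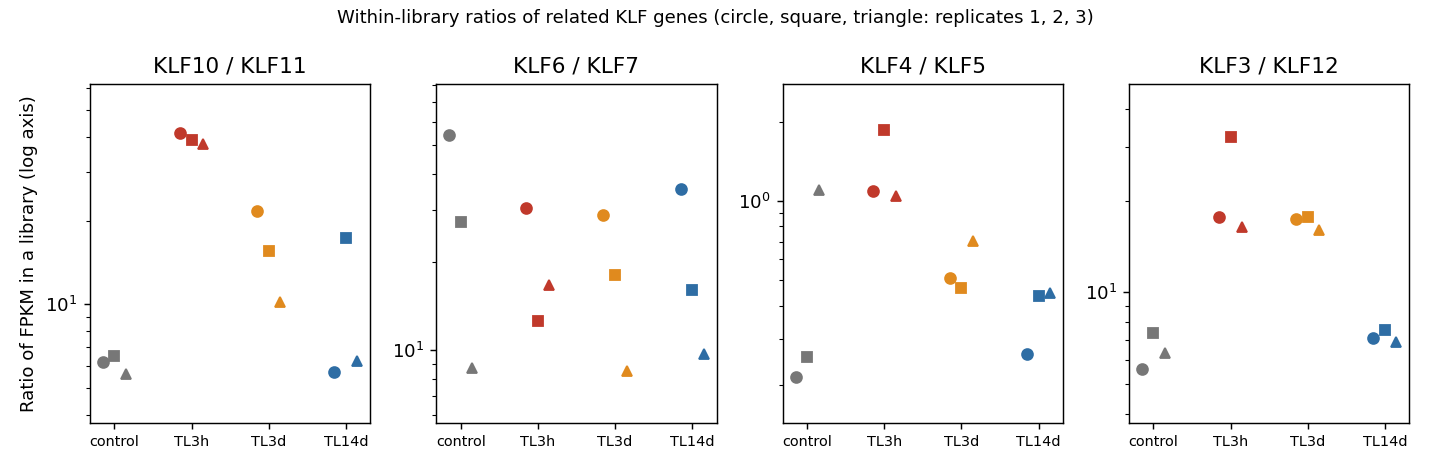
Ratio of FPKM within a library for 4 pairs of KLF genes, on log axes, with circles, squares, and triangles for replicates 1, 2, and 3. KLF10 over KLF11 was 37.9 to 41.4 at 3 hours and 5.63 to 6.53 in the controls, and KLF6 over KLF7 overlapped between groups.

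Of 16 other KLF and SP family names, 14 were in the table and 8 passed the filter. At 3 hours 0 of these 8 were higher and SP4 was lower (log2 fold change −0.49, q = 0.0478), where 23.2% and 22.2% of all genes were. At 3 days SP4 (−0.96, q = 0.0137) and KLF15, a glucocorticoid-induced KLF (−4.77, q = 0.0246), were lower, as were 7.0% of all genes. KLF9 and KLF15 were 10.1 and 6.86 times as high in control replicate 3 as in the mean of the other controls. KLF9 stood at 18.0, 25.0, and 216 CPM in the controls and at 104, 147, and 130 CPM at 3 hours. Its 3-hour libraries thus lay above control replicates 1 and 2 and below control replicate 3.

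Among 12 tested cofactors and ubiquitin ligases of KLF proteins, SMURF2 was higher at 3 hours (log2 fold change 0.43) and 4 were lower, and of all genes tested 23.2% were higher and 22.2% lower. These were FBXO32 (−1.94), an atrophy-related ubiquitin ligase, the acetyltransferases CREBBP (−0.49) and KAT2B (−0.69), and SIN3A (−0.39). At 3 days KAT2B (−0.73) and FBXO32 (−1.64) were lower, as were 7.0% of all genes. The MEK5-ERK5 pathway, which induces KLF2 and KLF4, was represented by 9 tested genes, of which MAP2K5 (−1.73), HDAC5 (−1.76), and MEF2A (−0.56) were lower at 3 hours and 0 were higher. Beside the 3 of 9 lower stands the same 22.2% of all genes. None of these 9 passed the threshold at 3 days, when 3 had an unadjusted p under 0.05, as had 36.2% of all genes.

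Of 8 tested endothelial targets of KLF2 and KLF4, 5 were higher at 3 hours and 0 were lower, where 23.2% and 22.2% of all genes were. They were PLAT (log2 fold change 5.63), THBD (3.41), S1PR1 (3.27), NOS3 (3.20), and CAV1 (1.33), which encode tissue plasminogen activator, thrombomodulin, a sphingosine phosphate receptor, endothelial nitric oxide synthase, and caveolin. NOS3, the fifth by q, was named after its values were seen. The sum of 8 endothelial markers ran from 40.9 to 288 CPM in the controls and from 657 to 1270 CPM at 3 hours, with PECAM1 and CDH5 higher among the 8 and none at 0. Its part in these values was not tested. At 3 days PLAT alone of the 8 was higher (3.43), as were 10.6% of all genes.

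Among the TGF-β responders, ID1 (log2 fold change 2.63), SKIL (1.95), and TGIF1 (1.30) were higher at 3 hours, and 0 tested members were lower. Among them at 3 days, PMEPA1 (5.14) and ID1 (1.71) were higher. Of 14 tested epithelial genes linked to KLF4 and KLF5, IVL (3.92), CLDN7 (1.0), and EPCAM (1.0) were higher at 3 hours, and GRHL2 (−2.49), GRHL3 (−2.42), DSG1 (−1.63), and GRHL1 (−1.58) were lower, counts of 3 and 4 that lie near the 23.2% and 22.2% of all genes. At 3 days KRT5 (1.86) and IVL (2.84) were higher, as were 10.6% of all genes. Of 10 tested glucocorticoid-induced genes, DUSP1 (2.93), SGK1 (3.23), NFKBIA (1.96), and CEBPD (1.6) were higher at 3 hours and 0 were lower, against the same shares of all genes. At 3 days ZBTB16 (−5.15), KLF15, and TSC22D3 (−1.79) were lower, against 7.0% of all genes.

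Summed levels of other cell type markers also differed among the libraries. The sum of 6 neutrophil markers ran from 3.28 to 78.6 CPM in the controls, from 993 to 2663 CPM at 3 hours, and from 119 to 722 CPM at 3 days. The sum of 5 macrophage markers ran from 66.2 to 570 CPM in the controls, from 482 to 719 CPM at 3 hours, and from 1128 to 1844 CPM at 3 days, so that the 3-hour libraries overlapped the controls. That of 6 fibroblast markers ran from 105042 to 125553 CPM at 3 hours, above all controls, although 0 of the 6 passed the threshold in edgeR and 0 had an unadjusted p under 0.05, against 45.4% and 52.3% of all genes. At 3 days it was 1328, 11713, and 64685 CPM, overlapping the controls. None of the markers in these 3 lists was at 0 in any group. The part of these cells in the KLF values was not tested.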

How the data were processed

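RNA of 12 conjunctiva libraries was analysed, grouped by their labels. Paired-end reads of 150 bp were mapped by the authors to OryCun2.0 with STAR (2.6.0c in the submitters' processing notes) and used GeneData Profiler Genome. The deposited values were estimated counts, unscaled for depth, with 23.4% of the gene values being fractions, and FPKM values, which the authors had scaled by length and depth. Use of strand in counting, and the division of reads between genes or models, are not given in the sources used here. The members and gene lists were chosen with earlier results of these data known.

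Here the estimated counts were rounded, filtered with filterByExpr (minimum count 10, minimum total 15), scaled by TMM, and tested in 1 quasi-likelihood fit of all 12 libraries without covariates (edgeR 4.0.16, R 4.3.3). Benjamini-Hochberg adjustment ran over 14835 genes or 26082 transcripts. Log2 fold changes used a prior count of 0.125, and their SE was taken from the test statistic. FPKM values were used for levels, shares, and ratios. The genes named were all members and, of each other list, up to 4 past the threshold in each direction with the lowest q at 3 hours and at 3 days, except NOS3. The study operated on right eyes and describes group values as averages over 3 eyes, so operated libraries of a group were taken as separate animals. For the controls this is not given, and p-values measure the spread between libraries, and intervals and floors cover these or counting error only. In simulated data with 14835 genes for the comparison of TL3h with control, 52 of 100 genes changed 4-fold and 77 of 100 changed 8-fold were recovered, with 6 false calls. Only these genes were changed in the simulation, whereas 45.4% of all genes tested were called in the data. The recovery therefore does not measure the power of this comparison. Libraries of a group were checked for copies, and the lowest mean squared difference over counting variance, near 1 for copies, was 80.9. Deviations of same-numbered libraries from their group means had r from −0.17 to 0.50, over 0.1 in 8 of 18 pairs. Of the 12 libraries, 9 had their best match in a library of their own number. The check therefore does not settle whether the numbers are pairs. The labels do not give pairs, and the numbers were not taken as pairs in the main fit.

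Alternatives were other scalings, filters, and tests (DESeq2 1.42.0, limma 3.58.1), unrounded values, only the 6 libraries compared, a replicate block, and each library left out. Leaving out control replicate 3 and TL14d replicate 1 together was chosen after seeing the data and favours larger differences from control. The within-library ratios and the KLF3 transcript shares were also chosen after seeing the data. No sequences are shown, and some list members and their list count are not reported here.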

Additional observations from a re-analysis of the deposited data

Results flagged for a closer look

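The change against control differed between times in several KLF genes, by a test of the difference itself in edgeR. Of all genes tested, 37.3% also differed from 3 hours to 3 days, and 45.3% differed at 14 days against 3 hours. From 3 hours to 3 days the log2 difference was −1.66 in KLF4 (q = 0.00406), −1.55 in KLF6 (q = 0.000691), and 0.69 in KLF11 (q = 0.0157, and 0.0504 without TL3d replicate 3). For 14 days against 3 hours it was −1.70 in KLF4 (q = 0.00293), −2.23 in KLF6 (q = 0.000102), −2.03 in KLF7 (q = 0.0375, and up to 0.111 with 1 library left out), −1.11 in KLF10 (q = 0.0111, and 0.102 with scaling by library size only), 1.04 in KLF11 (q = 0.00164), and 1.41 in KLF12 (q = 0.00799).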

How the results depend on the processing

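Of 60 log2 fold changes followed (9 KLF genes in 6 comparisons and 3 transcript models in 2), 20 passed the threshold. Over 23 alternatives each, these kept their call in 406 of 460 cases, lost it in 54, and changed direction in 0. Scaling by library size only shifted the all-gene median at 3 hours from 0.02 to −0.47 (log2; upper quartile −0.20), and called 2 KLF genes higher and 4 lower at 3 hours (12.7% and 38.2% of all genes) and 2 lower from 3 hours to 14 days (11.3%). With only the 6 libraries compared, 2 were higher at 3 hours, 2 were lower at 3 days, and 1 transcript was lower at 3 days. DESeq2 called 2 higher and 2 lower at 3 days, 1 higher and 1 lower between 3 and 14 days, and, of transcripts, 3 higher and 4 lower at 3 days and 1 higher between 3 and 14 days. Shares of all genes or transcripts called were not counted in the DESeq2, 6-library, and replicate-block fits. They were also not counted in fits that left out 1 library. Transcripts higher at 3 days numbered 2 with RLE scaling, the CPM filter, limma-trend, or unrounded values. With the replicate number as a block, although the numbers were not taken as pairs, 2 KLF genes were lower at 3 days, and no other count of KLF genes left the range of 1.5 times. Of 12 libraries, 9 matched best with their own number.

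Leaving out 1 library, or control replicate 3 and TL14d replicate 1 together, gave 2 to 5 KLF genes higher and 2 to 4 lower at 3 hours, 0 to 2 higher and 0 to 3 lower at 3 days, 0 to 1 higher and 0 to 1 lower at 14 days, 0 to 1 higher and 2 to 4 lower from 3 hours to 3 days. Transcripts numbered 2 to 6 higher and 1 to 4 lower at 3 hours, 0 to 3 higher and 0 to 4 lower at 3 days, 0 to 1 lower at 14 days, 0 to 1 higher from 3 hours to 3 days, and 2 to 5 lower from 3 hours to 14 days. Values that changed sign had not passed the threshold. Against control these were KLF11 at 3 days (−0.0086 by library size, −0.046 by upper quartile, −0.069 to 0.10 with libraries left out) and, at 14 days with libraries left out, KLF6 (−0.084 to 0.14), KLF7 (−0.32 to 1.76), and KLF13 (−0.17 to 0.79). From 3 hours to 3 days they were KLF3 (−0.000432 unrounded, −0.054 to 0.093), KLF5 (0.020 by library size), and KLF12 (−0.055 to 0.48). Between 3 and 14 days they were KLF3 (−0.37 to 0.12), KLF4 (0.022 by upper quartile, −0.14 to 0.057), and KLF13 (−0.38 to 0.051). For 14 days against 3 hours they were KLF3 (0.43 by library size, 0.17 by upper quartile, 0.024 with the 6 libraries, −0.37 to 0.12) and KLF5 (−0.30 to 0.39). The causes were not tested. With 3 libraries a group, genes of modest change can be missed, and counts of 41 to 150 limit KLF13.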

Other observations

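For each KLF gene, the 3 genes outside the family with the nearest course over the 12 libraries were found by the root mean square difference of log2 CPM from the control mean. KLF6 was nearest to YRDC (0.17), UTP4 (0.17), and STK40 (0.21), and KLF10 to an actin gene, LOC100008822 (0.18), CFL1 (0.23), and ACTB (0.24). KLF12 was nearest to GANC (0.24), AMOT (0.29), and NR3C2 (0.32), the mineralocorticoid receptor. KLF4 was nearest to ACER2 (0.21), PPP1R2 (0.26), and BAG3 (0.28), and KLF5 to PRDX6 (0.14), PTGES (0.19), and GOLGB1 (0.20). KLF7 was nearest to CLIC4 (0.34), MARCH3 (0.36), and BAG2 (0.36). KLF3 was nearest to RAD21 (0.15), KLF11 to POMT2 (0.14), and KLF13 to CTBS (0.19). For comparison, the same measure of a gene's own course against no change was 1.21 for KLF6 and 0.35 for KLF3.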
